A study of Homo sapiens with 2 samples.

Results

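The SLC25 family is the largest family of solute transporters in human mitochondria. Its members were taken as every row of both deposited tables whose symbol is SLC25A followed only by a number, which gave 50 rows under 48 symbols, of 51609 symbols with a value in both libraries. RNA had been sequenced from HCT116, a permanent line of human colon cancer cells, in 2 libraries described as biological replicates and named PJ and PF. Cells of both were cultured in DMEM with fetal bovine serum and antibiotics, no treatment is named, and the labels do not say whether the libraries came from separate cultures. There was no other group, so the data bear on which carrier genes this line transcribed and how far the replicates differed.

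SLC25 proteins carry metabolites, nucleotides and cofactors across the inner mitochondrial membrane, which is otherwise closed to them. Each is built from repeats of a related unit that together enclose a substrate site opening in turn to either side of the membrane. Carriers exchange ADP for ATP, bring in phosphate, move citrate, malate, glutamate and aspartate between matrix and cytosol, and supply cofactors such as folate, coenzyme A and NAD. Uncoupling proteins and the MTCH proteins belong to the same family but have other symbols, which is why 5 numbers between SLC25A1 and SLC25A53 are missing among the members.

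Values are FPKM (fragments relative to transcript length and to all mapped fragments), with the 95% bounds deposited for each estimate. No member had a failed estimate. SLC25A6 has rows on chromosomes X and Y, the Y row listed at 0, and SLC25A10 has a further overlapping row under 0.02 FPKM in each library; rows of a symbol were summed. Estimates of 7 members lay outside their own bounds in at least 1 library, each above the upper one. That is 17.5% of the 40 members whose mean reached 1 FPKM, against 16.0% of all symbols with that mean. In both libraries this held for SLC25A11, SLC25A26, SLC25A32, SLC25A33, SLC25A37 and SLC25A40. Of 12 colon epithelium markers 9 were expressed in both libraries and 6 were at 10 FPKM or more in both. KRT8, KRT18, KRT19 and EPCAM were between 143 and 325 FPKM in PJ and between 213 and 760 in PF, while VIL1, LGALS4 and GPA33, genes of differentiated intestinal cells, stayed under 1 FPKM in both. Markers of endothelium, muscle, testis and hepatocytes were not at 1 FPKM or more in both libraries in any of 29 cases, with summed levels of 0.511, 1.97, 0.608 and 0.568 FPKM in PJ and 0.673, 0.737, 0.292 and 0.785 FPKM in PF. PRM1, PRM2 and TNP1 of sperm and FGA of hepatocytes were listed at 0 in both. Fibroblast markers passed in 1 of 10 cases (COL1A1), with sums of 4.75 FPKM in PJ and 7.89 in PF, and immune markers in 1 of 10 (CD68), with sums of 15.6 and 4.93.

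Most carrier genes were transcribed. At 1 FPKM or more in both libraries stood 38 of 48 members, or 79.2%, against 27.9% of all symbols, 57.3% of 19038 protein-coding symbols and 131 of 287 other SLC transporter symbols (45.6%). At 10 FPKM or more in both stood 24 members, against 14.0% of all symbols, 31.8% of protein-coding symbols and 17.1% of the other SLC symbols. The median member was at 17.2 FPKM in PJ and 11.5 in PF, and the median protein-coding symbol at 3.92 and 3.25. The other 10 members split into 7 under 1 FPKM in both libraries and 3 that passed in a single library. These shares are descriptions of the libraries; no test was made.

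**Figure D1:**
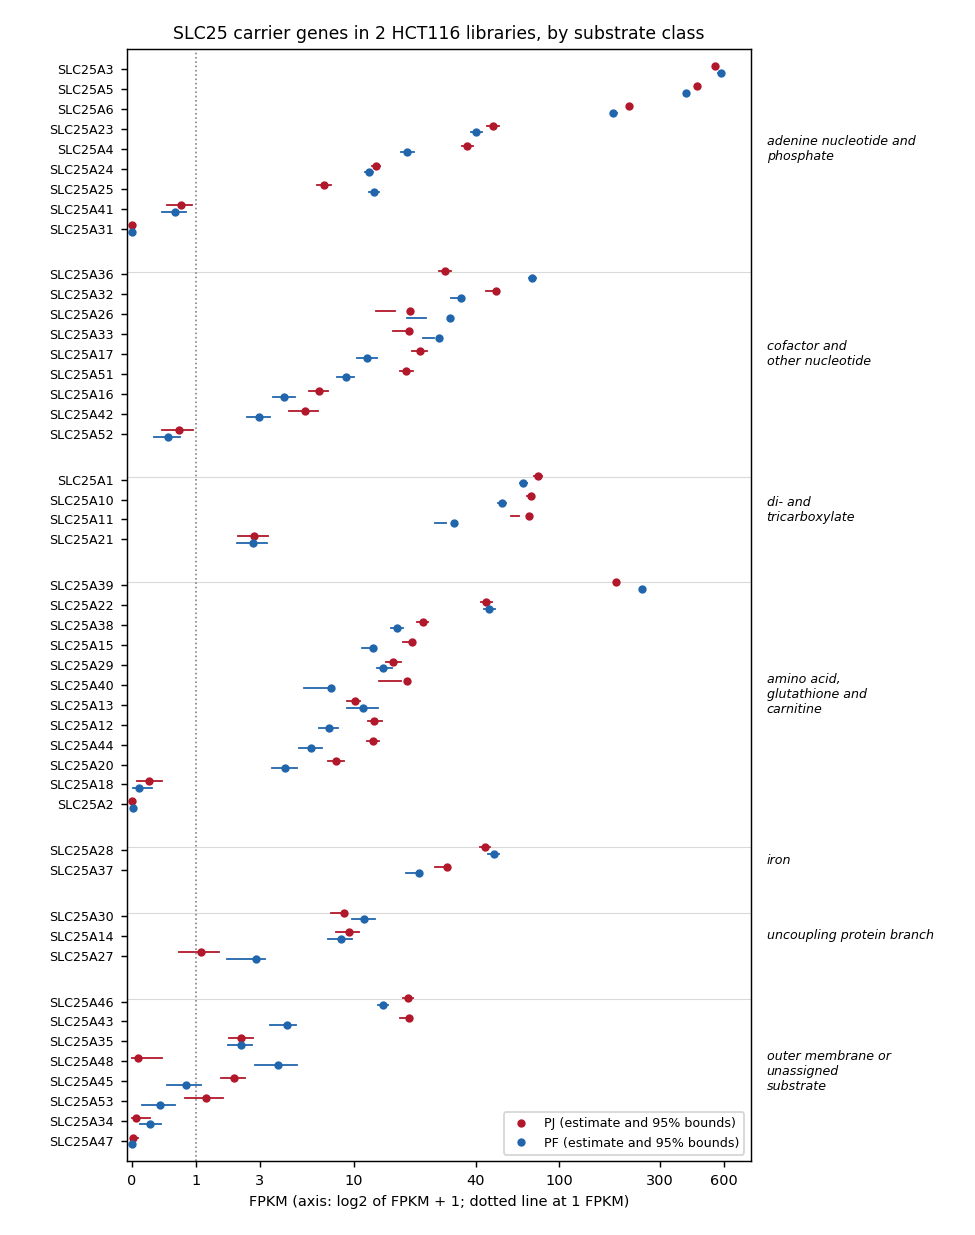
FPKM of 47 SLC25 genes (horizontal axis, log2 of FPKM + 1) in PJ (red) and PF (blue), with the deposited 95% bounds as lines, grouped by substrate class. Levels run from SLC25A3 at 545 and 579 FPKM to genes at or near 0, and 37 of the genes drawn lie right of the dotted line at 1 FPKM in both libraries.

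A few carriers held most of the family's transcript. Of a summed 2238 FPKM in PJ and 2094 FPKM in PF, the 4 genes SLC25A3, SLC25A5, SLC25A39 and SLC25A6 made up 62.0% in PJ and 66.9% in PF. SLC25A3 (ENSG00000075415.8; hg19 chromosome 12, 98987369 to 98995946) encodes the phosphate carrier, which brings in the phosphate that ATP synthase uses. It was the highest member in both libraries, at 545 FPKM in PJ (bounds 541 to 559) and 579 FPKM in PF (560 to 579). SLC25A5 (ENSG00000005022.5; chromosome X, 118602363 to 118605282), an ADP/ATP carrier known from dividing cells, came next at 444 FPKM in PJ (442 to 459) and 395 FPKM in PF (392 to 408). The next places in the order changed hands between the libraries. SLC25A6, another ADP/ATP carrier, was at 213 FPKM in PJ (209 to 221) and 180 FPKM in PF (177 to 188). SLC25A39, a carrier needed for glutathione import, was at 186 FPKM in PJ (182 to 190) and 246 FPKM in PF (242 to 250). Over all 48 members the order of levels was similar in the libraries, with Spearman's rho = 0.95 across genes, which are not independent replicates.

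Promoter sequences were compared where a carrier type has a transcribed and a nearly silent gene, and such pairs are printed for the ADP/ATP and the glutamate carriers. Each window runs from 250 bases before to 50 bases after a gene start, from RefSeq on GRCh38.p14, 5′ to 3′ on the gene's strand, with CG dinucleotides in capitals. SLC25A5 lies at chrX:119468194-119468493 (plus strand), SLC25A31 at chr4:127730150-127730449 (plus strand), SLC25A22 at chr11:798232-798531 (minus strand) and SLC25A18 at chr22:17563248-17563547 (plus strand).
SLC25A5: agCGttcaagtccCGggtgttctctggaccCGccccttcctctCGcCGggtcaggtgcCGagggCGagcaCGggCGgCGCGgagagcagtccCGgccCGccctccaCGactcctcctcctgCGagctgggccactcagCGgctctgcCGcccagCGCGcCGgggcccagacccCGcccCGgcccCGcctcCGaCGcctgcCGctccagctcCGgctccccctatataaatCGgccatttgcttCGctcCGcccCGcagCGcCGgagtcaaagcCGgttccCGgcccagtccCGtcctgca
SLC25A31: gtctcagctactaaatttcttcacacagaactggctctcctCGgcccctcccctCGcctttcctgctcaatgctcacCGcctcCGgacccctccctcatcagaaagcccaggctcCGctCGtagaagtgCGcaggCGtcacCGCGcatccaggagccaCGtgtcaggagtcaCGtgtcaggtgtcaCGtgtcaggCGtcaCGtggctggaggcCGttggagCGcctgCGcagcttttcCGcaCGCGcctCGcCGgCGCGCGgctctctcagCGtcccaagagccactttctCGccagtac
SLC25A22: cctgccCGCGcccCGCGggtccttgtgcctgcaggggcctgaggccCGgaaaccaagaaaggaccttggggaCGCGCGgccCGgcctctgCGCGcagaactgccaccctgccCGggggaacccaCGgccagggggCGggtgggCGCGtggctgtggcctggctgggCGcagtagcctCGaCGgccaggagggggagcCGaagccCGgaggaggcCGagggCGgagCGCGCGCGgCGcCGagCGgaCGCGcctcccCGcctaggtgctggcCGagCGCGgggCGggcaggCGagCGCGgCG
SLC25A18: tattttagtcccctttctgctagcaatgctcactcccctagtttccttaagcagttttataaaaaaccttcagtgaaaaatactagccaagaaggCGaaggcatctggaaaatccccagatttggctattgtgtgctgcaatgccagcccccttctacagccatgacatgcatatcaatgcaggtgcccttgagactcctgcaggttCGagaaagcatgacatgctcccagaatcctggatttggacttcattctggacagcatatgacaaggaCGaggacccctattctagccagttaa

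The window of SLC25A5 holds 36 CG dinucleotides and that of SLC25A31 holds 28, although SLC25A31 was at 0.0013 FPKM in PJ and 0.0022 in PF. The glutamate carrier genes differ more: SLC25A22, at 45.1 FPKM in PJ and 46.6 in PF, has 41, and SLC25A18, at 0.21 and 0.083 FPKM, has 3. A nearly silent member could thus have a CG-rich window or a CG-poor one. RefSeq windows were matched for 40 of the 48 members. The 32 matched members at 1 FPKM or more in both libraries had a median of 29.5 CG dinucleotides, the 8 other matched members 13.5, and the 15842 protein-coding genes with a window 22. An observed to expected CG ratio of 0.6 or more was met by 31 of those 32 members and 4 of those 8, against 65.8% of the protein-coding genes. The exception among the transcribed members was SLC25A25, with 9 CG dinucleotides. These counts take the first listed start of each gene, and 7 members have several. Over all 51 windows the ratio was met by 36 of 41 for transcribed members and 5 of 10 for the others. The protein-coding genes were taken whether expressed or not. Whether the transcribed members differ from other expressed genes in CG content was not tested.

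**Figure D2:**
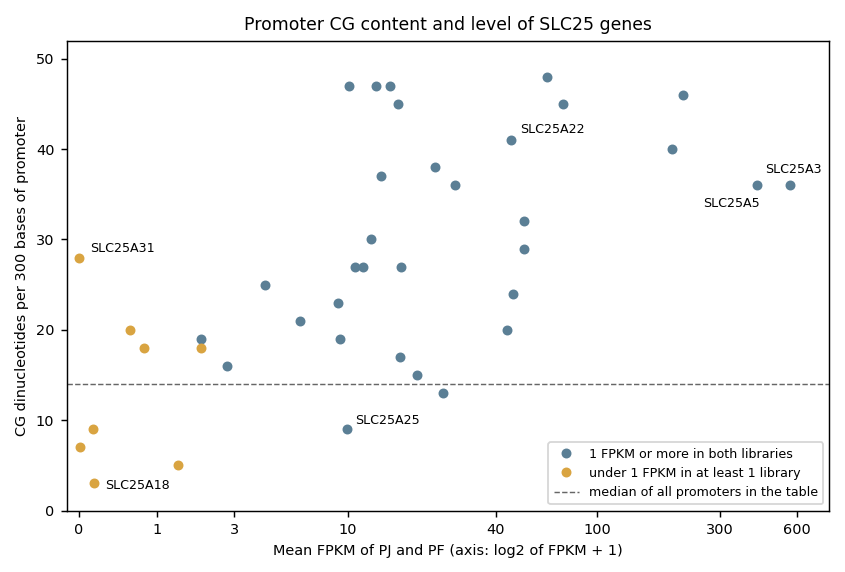
CG dinucleotides in the 300-base promoter window (vertical axis) against the mean FPKM of PJ and PF (horizontal axis, log2 of FPKM + 1) for the 40 SLC25 genes with a window. Transcribed members (blue) run from 9 to 48, the other 8 (yellow) from 3 to 28, and the dashed line is the median of 14 over all 27305 genes of the promoter table.

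Short motifs were searched on both strands of the same windows, and a match says only that the letters are present. The GC box letters GGGCGG were in 28 of 40 member windows (70.0%) and 58.5% of protein-coding windows. The CCAAT box, CCAAT, was in 19 (47.5%) against 36.4%. The E-box CACGTG was in 7 (17.5%) against 8.88%, among them SLC25A31 with 4 copies. The ETS core CCGGAA was in 12 (30.0%) against 22.9%. Below the share of protein-coding windows were TATAAA, in 3 (7.5%) against 9.63%, the NRF1 core GCATGCG, in 1 (2.5%) against 5.14%, and the YY1 core ATGGCGG, in 1 (2.5%) against 7.63%. The windows with TATAAA were those of SLC25A5, SLC25A18 and SLC25A26. All these letters but CCAAT and TATAAA contain a CG, and member windows held more of those dinucleotides, with a median of 27 against 22.

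Members shared a compact coding length. In GENCODE release 29 the principal coding sequence was 822 to 2034 bp in 47 members with one, with a median of 942 bp, and 40 of the 47 lay between 800 and 1100 bp. The aspartate/glutamate carriers SLC25A12 and SLC25A13, which bear an added calcium-binding region, were longest, at 2034 and 2025 bp. Gene spans varied far more, from 1319 bp for SLC25A52 to 494436 bp for SLC25A21. Members lay on 19 chromosomes, and 3 pairs lay within 50 kb of each other. In each pair the levels were far apart: SLC25A41 was at 0.70 FPKM in PJ and 0.60 in PF beside SLC25A23 at 48.5 and 40.3, SLC25A47 at 0.017 FPKM in PJ and listed at 0 in PF beside SLC25A29 at 15.9 and 14.2, and SLC25A43 at 18.9 and 4.34 FPKM beside SLC25A5.

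For most carrier types with several genes, the same gene led in both libraries. This held for 8 of 9 such types, and in 4 of them the leading gene carried at least 90% of the type's summed FPKM in both libraries. FPKM is scaled by transcript length, so levels of different genes can be set side by side, but reads shared by near-identical genes may have been split between them.

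Among the ADP/ATP carriers SLC25A5 made up 64.0% of the sum in PJ and 66.5% in PF, and SLC25A6 30.7% and 30.4%. SLC25A4, the form known from heart and skeletal muscle, was at 36.5 FPKM in PJ (bounds 34.4 to 38.7) and 18.7 FPKM in PF (17.3 to 20.1), or 5.26% and 3.15%. SLC25A31, known from testis, was the lowest member of the type. The calcium-regulated carriers of ATP-magnesium and phosphate set the size of the matrix nucleotide pool. SLC25A23 led them with 70.1% in PJ and 61.4% in PF. SLC25A24 was at 13 FPKM in PJ and 12 in PF, with overlapping bounds. SLC25A25 was at 7.01 FPKM in PJ (6.44 to 7.61) and 12.7 FPKM in PF (11.9 to 13.5), so that it lay below SLC25A24 in PJ and above it in PF, where the bounds of the genes overlapped. SLC25A41 stayed under 1 FPKM in both.

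The aspartate/glutamate carriers were the exception to a common leader. They belong to the malate-aspartate shuttle, which passes reducing equivalents from cytosolic NADH into the mitochondrion. SLC25A12 was at 12.7 FPKM in PJ (11.8 to 13.9) and 7.39 FPKM in PF (6.57 to 8.25). SLC25A13 was at 10.2 FPKM in PJ (9.27 to 10.7) and 11.2 FPKM in PF (9.19 to 13.3). SLC25A12 thus led in PJ with 55.6% and SLC25A13 in PF with 60.3%, and in each library the bounds of the 2 genes did not overlap.

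In 4 further types a single gene stood for nearly all transcript. SLC25A22 held 99.5% of the glutamate carrier sum in PJ and 99.8% in PF. SLC25A15, the ornithine carrier of the urea cycle, was at 19.7 FPKM in PJ and 12.5 in PF, while its intronless relative SLC25A2 was listed at 0 in PJ and at 0.018 FPKM in PF. SLC25A51, which carries NAD, was at 18.4 FPKM in PJ and 9.11 in PF, and its close copy SLC25A52 at 0.67 and 0.48. SLC25A39 held 90.9% of the glutathione carrier sum in PJ and 97.0% in PF, with SLC25A40 at 18.6 and 7.66 FPKM. The iron carriers, called mitoferrins, were both well transcribed. SLC25A28, the form found in most tissues, was at 44.4 FPKM in PJ and 48.9 in PF, with overlapping bounds. SLC25A37, the form of developing red cells, was at 29 FPKM in PJ and 21.3 in PF, above its upper bounds of 28.3 and 20.8.

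**Figure D3:**
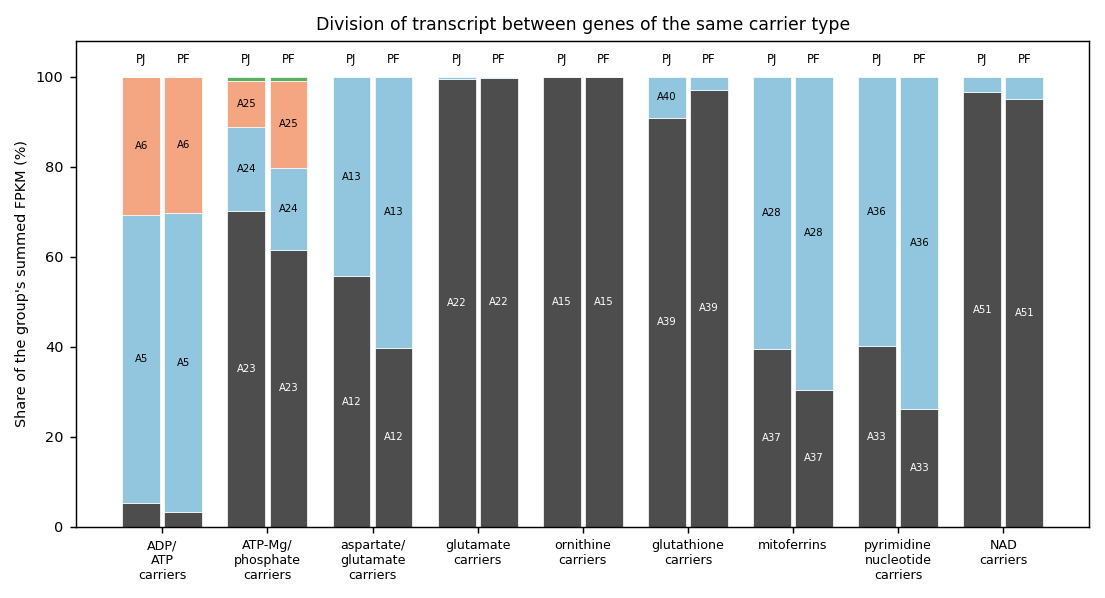
Share of the summed FPKM (vertical axis, percent) held by each gene of 9 carrier types in PJ (left bar) and PF (right bar); bar labels leave out SLC25. SLC25A5, SLC25A23, SLC25A22, SLC25A15, SLC25A39, SLC25A28, SLC25A36 and SLC25A51 led in both libraries, and the aspartate/glutamate carriers changed leader.

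The carriers of di- and tricarboxylates were all transcribed, 4 of 4. SLC25A1, which exports citrate for fatty acid and sterol synthesis, was at 79.5 FPKM in PJ (76.4 to 83.2) and 67.4 FPKM in PF (65.3 to 70.5). SLC25A10, which exchanges malate or succinate for phosphate, was at 73.5 FPKM in PJ (70.7 to 76.5) and 53.5 FPKM in PF (51.4 to 56.3). The gene MRPL12 overlaps SLC25A10, and the part of shared reads in its value was not tested. SLC25A11, the carrier of 2-oxoglutarate and malate, was at 72.2 FPKM in PJ (59.1 to 64.7) and 31.6 FPKM in PF (25.4 to 28.8). SLC25A21, a carrier of longer oxodicarboxylates, stood far lower, at 2.74 FPKM in PJ and 2.73 in PF.

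Of the carriers for cofactors and other nucleotides, 9 of 10 passed 1 FPKM in both libraries. SLC25A32, for folate or flavin cofactor, was at 49.9 FPKM in PJ and 33.9 in PF. SLC25A26 imports the methyl donor S-adenosylmethionine and was at 19.2 FPKM in PJ and 30.0 in PF. SLC25A17, a peroxisomal carrier of cofactors, was at 21.4 FPKM in PJ and 11.7 in PF. SLC25A42, for coenzyme A, was at 5.50 and 2.97 FPKM, and SLC25A16 at 6.56 and 4.21. Further carriers for amino acids and acylcarnitine also passed. SLC25A38, which supplies glycine for heme synthesis, was at 22.2 FPKM in PJ and 16.5 in PF, and SLC25A29, a carrier of basic amino acids, at 15.9 and 14.2. SLC25A44, which imports branched-chain amino acids, was at 12.5 FPKM in PJ and 5.95 in PF, and SLC25A20, the carnitine/acylcarnitine carrier of fatty acid oxidation, at 8.13 and 4.26.

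The branch related to uncoupling proteins passed in 3 of 3 cases but none was at 10 FPKM in both libraries. SLC25A30 was at 8.96 FPKM in PJ and 11.3 in PF, SLC25A14 at 9.52 and 8.61, and SLC25A27 at 1.12 FPKM in PJ (0.67 to 1.56) and 2.83 in PF (1.79 to 3.22). The class of outer membrane or unassigned carriers was the least transcribed, with 3 of 8 at 1 FPKM or more in both. SLC25A46, an outer membrane protein of mitochondrial shape control, was at 18.8 FPKM in PJ and 14.1 in PF, and SLC25A35 at 2.27 and 2.25. SLC25A45 and SLC25A53 passed in PJ only, at 2.03 and 1.23 FPKM there, against 0.79 and 0.36 FPKM in PF. SLC25A34 was at 0.053 FPKM in PJ and 0.22 in PF, and SLC25A47, known from liver, was near 0 in both.

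The replicates differed at least 2-fold in 6 of the 40 members with a mean of 1 FPKM or more, as differences of log2(FPKM + 1), a scale that makes differences of low genes look smaller. Higher in PJ were 4 members, or 10.0%, against 10.4% of all 15736 symbols with that mean; lower were 2, or 5.0%, against 5.22%. The family's share was thus close to that of all symbols. Over the members the log2 ratio of PJ to PF had a median of 0.25, and it was 0.22 over all symbols with that mean. Of the 40 members, 28 were higher in PJ by any amount (70.0%), against 65.8% of all symbols. The median PJ to PF ratio of expressed symbols was 1.19 (log2 0.25), called the shift here. Scaling to an equal sum over symbols spanning 200 bp or more gave a smaller factor of 1.02. With the median ratio divided out, 20 members were higher and 20 lower. In each direction 2 were past 2-fold, or 5.0%, against 6.29% higher and 7.14% lower of all symbols. Deposited bounds were apart for 32 of the 40 members, 23 of them higher in PJ and 9 lower. Over all symbols the shares were 44.5% higher and 18.2% lower, and of 11476 protein-coding symbols with that mean 5867 were higher and 2382 lower. Bounds leave out variation between cultures. With a single library on either side, no difference could be tested or checked in a replicate.

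**Figure D4:**
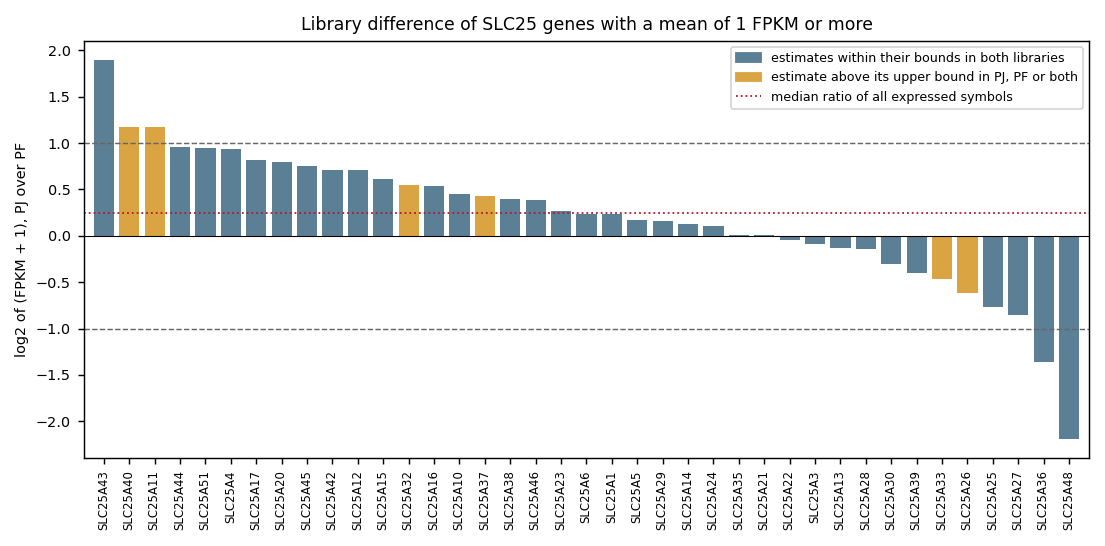
Log2 ratio of FPKM + 1, PJ over PF (vertical axis), for 39 SLC25 genes whose mean FPKM reached 1. Dashed lines mark 2-fold and the dotted line the median ratio of all expressed symbols (0.25); SLC25A43, SLC25A40 and SLC25A11 lie above and SLC25A36 and SLC25A48 below the dashed lines, and yellow bars have an estimate above its upper bound.

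SLC25A43 (ENSG00000077713.13; chromosome X, 118533023 to 118588441), whose substrate is not assigned, showed the largest difference upward. It was at 18.9 FPKM in PJ (17.1 to 19.2) and 4.34 FPKM in PF (3.47 to 4.91), a log2 ratio of 1.90, or 1.67 with the shift divided out. SLC25A40 (chromosome 7, 87462883 to 87505672) was at 18.6 FPKM in PJ (13.5 to 17.3) and 7.66 FPKM in PF (5.42 to 7.38), and the 2-oxoglutarate and malate carrier SLC25A11 lies at chromosome 17, 4840425 to 4843546. Their log2 ratios of 1.18 and 1.17 became 0.94 and 0.92 with the shift divided out, short of 2-fold, and the estimates of both genes exceed their upper bounds in both libraries. Without the members whose estimates lie outside their bounds, 1 member was 2-fold higher in PJ, SLC25A43.

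The pyrimidine nucleotide carriers were both lower in PJ. SLC25A36 (ENSG00000114120.7; chromosome 3, 140660672 to 140698775) was at 28.5 FPKM in PJ (26.7 to 30.4) and 74.7 FPKM in PF (71.8 to 77.6), a log2 ratio of -1.36, or -1.60 with the shift divided out. It ranked 15 of the 48 members in PJ and 5 in PF. SLC25A33, its relative, was at 19 FPKM in PJ and 26.6 in PF, a log2 ratio of -0.46, with both estimates above their upper bounds. SLC25A48 (ENSG00000145832.8, chromosome 5, 135170338 to 135224326), grouped here with the outer membrane or unassigned carriers, was at 0.072 FPKM in PJ (0 to 0.39) and 3.89 FPKM in PF (2.79 to 4.98), a log2 ratio of -2.19. It was the only member to pass 1 FPKM in PF and not in PJ.

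Other genes overlap 5 of these 6 members in the tables, SLC25A48 being the exception, and the sources do not say whether the counting used strand. RNF167 overlaps SLC25A11 and was at 67.2 FPKM in PJ and 55.9 in PF. DBF4 overlaps SLC25A40 and was at 28.5 and 19. The only row overlapping SLC25A36, RP11-231L11.3, was at or near 0 in both libraries. So were RP3-404F18.5 and AC004000.1, which overlap SLC25A43. U1 and Metazoa_SRP also overlap SLC25A43, but values are summed by symbol and may come from other places. Overlapping rows were found for 32 of the 48 members. The part of shared reads in these values was not tested. Several other readouts also differed between the libraries. All 13 protein genes of the mitochondrial genome were lower in PJ, with a median log2 ratio of -1.36. Of 9 colon epithelium markers with a mean of 1 FPKM or more, 7 were lower in PJ and 2 higher, against 5377 lower of all 15736 symbols. At least 2-fold lower were 3 of the 9 (33.3%, against 5.22% of all symbols), among them CDH1, at 1.80 FPKM in PJ and 21.9 in PF. Whether the carrier differences are linked to these was not tested.

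Genes that serve the carriers were looked at as separate lists. Carriers enter mitochondria through the TOM complex, small TIM chaperones of the intermembrane space and the TIM22 insertase. All 16 genes of this import list reached 1 FPKM in PJ and in PF, against 27.9% of all symbols and 57.3% of protein-coding symbols. TOMM6 was highest, at 320 FPKM in PJ and 275 in PF. In this list 4 of 16 genes were 2-fold higher in PJ (25.0%, against 10.4% of all symbols) and 0 lower (against 5.22%). The list's median log2 ratio was 0.67, or 0.43 with the shift divided out, against 0.22 and 0.01 over all symbols. They were the chaperone genes TIMM9, at 29.4 FPKM in PJ (26.8 to 32.3) and 8.79 in PF (6.81 to 38.2), TIMM8A, at 13.3 and 4.38, and TIMM10, at 61.3 and 26.0, and the insertase gene TIMM22, at 32.3 and 11. The bounds of TIMM9 overlapped, those in PF spanning the whole range in PJ, and those of the other 3 genes did not. With the shift divided out 3 remained past 2-fold, against 6.29% of all symbols, and TIMM10 was at a log2 ratio of 0.96. AGK, a lipid kinase that is also part of the insertase, had the opposite order at 9.26 and 14.7 FPKM, and TOMM20 was at 100.5 and 115. In PF, TOMM20 lay above its upper bound of 112.

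ATP synthase uses the ADP and phosphate that carriers bring in. Its list holds no gene of the mitochondrial genome and includes the inhibitor gene ATPIF1. All 16 listed genes were expressed, against 27.9% of all symbols and 57.3% of protein-coding symbols. There were 0 genes 2-fold higher or lower in PJ, against 10.4% and 5.22% of all symbols. ATP5B was highest at 859 FPKM in PJ and 731 in PF, and ATP5E lowest at 29.2 and 25.2. In PJ, ATP5B lay below its lower bound of 861. Its median log2 ratio of 0.25 was that of the general shift. Other mitochondrial transport genes passed in 19 of 19 cases, against the same 27.9% and 57.3%. The outer membrane channel genes VDAC1 and VDAC3 were at 135 and 144 FPKM in PJ and 131 and 89.3 in PF. The pyruvate carrier genes MPC1 and MPC2 were at 22.5 and 46.6 FPKM in PJ and 15.7 and 43.7 in PF. MPC2 lay above its upper bounds of 40.6 in PJ and 37.2 in PF. SFXN4, a sideroflexin, was at 63.3 FPKM in PJ and 28.5 in PF, a log2 ratio of 1.12, or 0.88 with the shift divided out. Of the 19 genes, 2 were 2-fold higher in PJ as deposited (10.5%, close to the 10.4% of all symbols). With the shift divided out 0 were, against 6.29% of all symbols. Enzymes that work on carrier substrates passed in 15 of 16 cases, against 27.9% of all symbols and 57.3% of protein-coding symbols. MDH2 and MDH1, the malate dehydrogenases of the shuttle, were at 242 and 194 FPKM in PJ and 176 and 203 in PF. MDH2 lay above its upper bounds of 227 in PJ and 163 in PF, and ME3 was near 0. OGDH, which consumes 2-oxoglutarate in the citrate cycle, was at 30.0 FPKM in PJ and 8.84 in PF, a log2 ratio of 1.66. It was the only gene of that list 2-fold higher, or 6.67% of the 15 with a mean of 1 FPKM or more, against 10.4% of all symbols. With the shift divided out, 1 of those 15 genes was past 2-fold the other way, against 7.14% of all symbols. That was IDH2, an NADP-linked isocitrate dehydrogenase of mitochondria, at 16.2 FPKM in PJ and 31.4 in PF. Its log2 ratio was -0.92 as deposited, short of 2-fold, and -1.15 with the shift divided out.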

How the data were processed

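RNA of HCT116 cells was sequenced as paired-end Illumina TruSeq V2 libraries, per the labels' protocols. Reads were processed with TopHat2 2.0.8b, TopHat and Cufflinks on hg19, per the submitters' processing notes; no source used here names the annotation release. Each library has its own deposited table, whose columns are FPKM, its bounds and a status, per the file headers, over 56586 rows. FPKM depends on the other RNAs of a library. Total fragments are not given, so depth is unknown.

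Rows with status FAIL (20 in PJ, 23 in PF) were treated as missing, and FPKM and bounds were summed by symbol. Expressed means at least 1 FPKM in PJ and in PF; differences are log2 ratios of FPKM + 1, PJ over PF. Gene type and coding length came from GENCODE release 29, matched by identifier for 88.7% of rows, promoters from RefSeq. Counting was tested on simulated libraries. Every member could be named; of the other lists, the 3 highest, the lowest and genes 2-fold apart, plus EPCAM, MPC1, MPC2, AGK, TOMM20, IDH2, the overlapping genes RNF167 and DBF4 and the printed promoters, chosen after their values were seen. The members, lists and carrier types were chosen with earlier results of these data known. The planned protein comparison was not made, and the values of some genes are not reported here, though counts include them. Thresholds, pseudocounts, filters and scalings were varied, and each library was taken alone. Tools were Python 3.11.15, numpy 2.4.6, pandas 2.3.3, scipy 1.17.1 and matplotlib 3.10.9.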

Additional observations from a re-analysis of the deposited data

How the results depend on the processing

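The count of 38 members expressed in both libraries moved to 40 at 0.5 FPKM, 37 at 2 FPKM, 31 at 5 FPKM and 24 at 10 FPKM, and was 37 with lower bounds in place of estimates. With a single library it was 40 in PJ and 39 in PF. The 4 members 2-fold higher in PJ became 7 with a pseudocount of 0.1, 2 with the median ratio divided out, 13 at 1.5-fold, 1 without estimates outside their bounds and 0 of 11 without members that have an overlapping row. The 2 members lower in PJ became 5 at 1.5-fold, 1 when the mean had to reach 5 FPKM and 1 without overlapping rows. Members were left out for an overlapping row even where that row was at or near 0, as for SLC25A36. Leaving out estimates outside their bounds removes 3 of the 4 members higher in PJ, SLC25A11 and SLC25A40 among them. Dividing out the median ratio brings SLC25A11 and SLC25A40 under 2-fold. The pseudocount of 0.1 adds SLC25A44, SLC25A45 and SLC25A51, and the 5 FPKM filter removes SLC25A48, whose mean was 1.98 FPKM. The cause of the other changes was not tested. Leaving out members with overlapping rows and taking the highest row per symbol were chosen after the data were seen. The members' median level of 3.73 on the log2(FPKM + 1) scale was 4.18 in PJ and 3.64 in PF alone. Dividing out the median ratio changed the sign for SLC25A1, SLC25A5, SLC25A6, SLC25A14, SLC25A21, SLC25A24, SLC25A29 and SLC25A35, all within 2-fold, and scaling to an equal sum over symbols spanning 200 bp or more for SLC25A21 and SLC25A35. No member past 2-fold changed sign among the 4 scalings and pseudocounts tried, but this was fixed in advance. A shared pseudocount cannot reverse a sign, and factors of 1.19 and 1.02 are too small to reverse a 2-fold difference. Leaving out a library leaves no library difference to compute. No paired analysis was possible because there is a single group. With 1 library a side, the bounds cover the estimate within a library only, and the variation between cultures is unknown.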

Other observations

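Pseudogenes named for the family were mostly under 1 FPKM, as were symbols in general. Of 35 such rows, 7 reached 1 FPKM in PJ and in PF, against 27.9% of all symbols. All 35 together summed to 69.5 FPKM in PJ and 69.5 FPKM in PF. SLC25A3P2, a processed copy of the phosphate carrier gene (hg19 chromosome 12, 112430800 to 112431679), held most of it, at 48.4 FPKM in PJ and 51.9 in PF. The 2 copies of SLC25A3 came to 8.90% of their parent's FPKM in PJ and 8.97% in PF, and the 9 copies of SLC25A5 to 3.18% and 3.21%. For SLC25A15 the 5 copies came to 15.9% in PJ and 14.3% in PF. Reads of near-identical copies can be assigned to either gene, so the values of these parents and copies are uncertain. Antisense rows were low: SLC25A5-AS1 was at 0.13 FPKM in PJ and 0.29 in PF, and SLC25A30-AS1 at 0.032 and 0.034.

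Relatives with other symbols were measured for 5 genes. MTCH2, an outer membrane protein of the family that takes part in inserting proteins there, was at 199 FPKM in PJ and 113 in PF, and MTCH1 at 102 and 109. MTCH1 lay above every numbered member except SLC25A3, SLC25A5, SLC25A6 and SLC25A39 in each library. UCP2, an uncoupling protein found in many tissues, was at 5.22 FPKM in PJ and 6.35 in PF. UCP3, known from skeletal muscle, was at 0.88 and 0.92 FPKM, and UCP1, known from brown fat, at 0.019 and 0.0024.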
